A study of Mus musculus with 9 samples.

Results

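The miR-200 family of microRNAs (miRNAs) was followed in fetal mouse lung through the 5 mouse probes mmu-miR-200a, mmu-miR-200b, mmu-miR-200c, mmu-miR-141 and mmu-miR-429 (written below without the species prefix), out of 566 mouse miRNA probes on a NanoString nCounter panel, which counts reporter-labelled molecules without amplification. Members were chosen by name and not by their values, though with earlier results of these data known. The series holds 9 samples of whole C57BL/6 lung from E18.5 embryos, shortly before birth: 5 wild type (numbered 1 to 5) and 4 homozygous for a Bim allele with a mutated 3′ untranslated region, which the labels write as Bim3'UTRmut/mut (numbered 6 to 9, here called mutant). Bim is a pro-apoptotic BCL2 family protein. The labels name no further allele and no treatment in either group, and 100 ng of total RNA entered each assay. The allele could not be checked in these counts, which read miRNAs. In a second deposited table sample 5 carries a mutant comment, against its wild type label; the label was followed. The sources used here do not say whether each sample was a different embryo or litter, so every p-value covers sample-to-sample spread that may in part be technical.

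The miR-200 family marks epithelial cells. Its members repress the mesenchymal transcription factors ZEB1 and ZEB2, and these factors in turn repress both miR-200 gene clusters, a double-negative loop that holds the epithelial state. In lung the family is known from airway and alveolar epithelium. A miRNA selects its target mRNAs mainly through its seed, bases 2 to 8 from the 5′ end.

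The 5 mature sequences are shown because the family falls into groups in different ways by position in the genome and by seed. The panel names carry no arm, and the 3p arms, known as the abundant strands of this family, were taken. The RefSeq table (GRCm38.p6) held all 5. Seeds are in capitals.
miR-200b-3p: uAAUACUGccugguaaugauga
miR-429-3p: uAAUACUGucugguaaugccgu
miR-200c-3p: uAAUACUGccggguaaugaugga
miR-200a-3p: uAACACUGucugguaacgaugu
miR-141-3p: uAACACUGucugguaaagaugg
miR-200b, miR-429 and miR-200c share the seed AAUACUG, and miR-200a and miR-141 share AACACUG. The seeds differ by a single base, C4U from miR-200a to miR-200b (positions counted from 1 at the 5′ end). Of 1679 mouse mature miRNA names in the RefSeq table, 3 carry the first seed and 2 the second, which are the family members themselves. By position the grouping is another. The hairpins of miR-429 (chr4:156053905-156053987), miR-200a (chr4:156054896-156054985) and miR-200b (chr4:156055681-156055750) lie within 1846 bases on the minus strand of chromosome 4, overlapping the annotated gene Gm13648 and near Ttll10. Those of miR-141 (chr6:124717914-124717985) and miR-200c (chr6:124718322-124718390) lie within 477 bases on the minus strand of chromosome 6, between Phb2 and Ptpn6, with no annotated gene overlapping them apart from their own. Each seed group thus draws on both clusters. Over the first 22 bases, miR-200b and miR-200c differ at 2 positions (U11G and A22G), as do miR-200a and miR-141 (C17A and U22G), while the other pairs differ at 4 or 5.

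Summed over the mouse probes, the samples held 206964 to 289227 counts. A count was taken as above background if it exceeded the mean plus 2 SD of the 8 negative control probes of its lane, and a probe was kept if it did so in at least 4 samples, which left 189 of 566 probes and all 5 members. The mean negative control count was 64.3 to 79.1 in the lanes of wild types 2 and 5 and mutant 6, and 28.1 to 39.5 in the other 6 lanes. Wild type 3 and mutant 8 carried 1202 and 1271 counts of the heart miRNA miR-208a, against 15 to 54 in the other 7 samples, and 9153 and 14021 counts of the muscle miRNA miR-1 against 66 to 147. A measured value sets these 2 samples apart, so they are described one by one and not tested as a group against the rest.

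miR-200c, from the chromosome 6 cluster, gave the highest counts of the family. It read 3356, 3293, 173, 2950 and 3140 counts in wild types 1 to 5 and 3088, 3257, 380 and 2495 in mutants 6 to 9. Outside wild type 3 and mutant 8 it held 1.26% ± 0.0897 of the counts of kept probes (SD, n = 7). miR-141, its cluster mate, was the faintest member, at 176, 132, 27, 88 and 171 counts in the wild types and 145, 141, 48 and 131 in the mutants. It was above background in wild type 1, wild type 4, mutant 7 and mutant 9 alone, exactly the number of samples that the filter asks for. In second lanes of the RNA of wild type 5 and mutant 6, with a lower background, it was above the threshold at 176 and 150 counts.

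In the chromosome 4 cluster, miR-200b read 2262, 2016, 218, 1499 and 2058 counts in the wild types and 2065, 1974, 311 and 1572 in the mutants. miR-429 read 2320, 1662, 62, 1675 and 1871 counts in the wild types and 1614, 2217, 196 and 2012 in the mutants. miR-200a read 581, 466, 68, 278 and 561 counts in the wild types and 521, 555, 98 and 363 in the mutants. In all 5 members wild type 3 and mutant 8 were the lowest samples, while the remaining wild types and mutants overlapped. miR-200b and miR-200c were above background in all 9 samples, and miR-200a and miR-429 in all but wild type 3. Each probe has its own efficiency, so counts of different members are signals and not relative numbers of molecules. Together the family held 3.07% ± 0.127 of kept counts in the 7 samples, with a range of 2.92% to 3.26%, and 0.295% and 0.456% in wild type 3 and mutant 8.

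**Figure D1:**
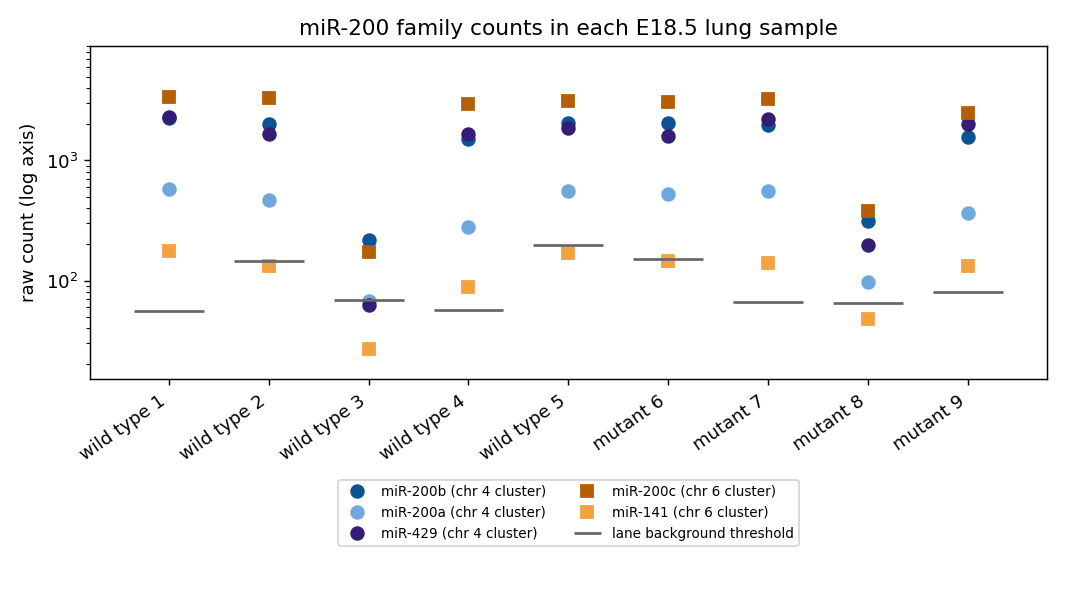
Raw counts (log axis) of the 5 members in each sample, circles for the chromosome 4 cluster and squares for the chromosome 6 cluster, with the background threshold of each lane as a grey line. Wild type 3 and mutant 8 sit below the other 7 samples for every member, and miR-141 lies under the threshold in 5 lanes.

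Among the 7 other samples the members differed in how steady they were. The SD of log2 CPM (the count scaled to a fixed library size after trimmed mean of M values normalisation, TMM) was 0.11 for miR-200b and 0.13 for miR-200c, against a median SD of 0.22 over the 189 kept probes. It was 0.20 for miR-141, 0.23 for miR-429 and 0.26 for miR-200a. This order depended on background: with it subtracted the SD of miR-141, which was under the lane threshold in 3 of these 7 samples, was the widest at 0.40. In the 4 lower-background lanes miR-429 had the smallest at 0.064. A second lane existed for wild types 1 and 5 and mutant 6, and the SD between lanes of the same RNA was 0.073 for miR-200b, 0.086 for miR-200c, 0.078 for miR-141, 0.083 for miR-200a and 0.14 for miR-429. Wild type 4 was lowest of the 7 for miR-200a and for miR-141, at -0.46 and -0.37 log2 from their means, while its miR-200c was the highest, 0.21 above the mean. The members that were low there share the AACACUG seed and lie in different clusters. This rests on a single sample, and with background subtracted wild type 4 was no longer the lowest of the 7 for miR-141.

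The level of miR-429 also differed between lanes of lower and higher background. The log2 CPM of miR-429 was 13.00 to 13.13 in the 4 lanes with a mean negative control count below 50 and 12.63 to 12.70 in the 3 lanes above, with no overlap. Per kept total, its level in the second lane relative to the first was -0.22 log2 for wild type 1, whose second lane had the higher background, and 0.16 for wild type 5 and 0.20 for mutant 6, whose second lanes had the lower one. Its level was thus lower in the higher-background lane of all 3 RNAs. The same held for miR-200a, with -0.041, 0.081 and 0.18, and the opposite for miR-200c, with 0.088, -0.062 and -0.18. miR-200b and miR-141 had no common direction. The part of lane background in these differences was not tested. The share of all kept probes with such a split or common direction was not counted, so neither is read as particular to these members. Over the 7 samples the other 4 members, miR-200a and miR-200c included, overlapped between the lane classes, as miR-200b did with 12.78 to 13.09 and 12.83 to 12.99. Each lane class holds both genotypes.

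Ratios between members were taken within a sample, which needs no scaling. Over the 7 samples the log2 ratio of miR-200a over miR-200b ran from -2.43 to -1.83 (SD 0.20), that of miR-429 over miR-200b from -0.36 to 0.36 (SD 0.26) and that of miR-141 over miR-200c from -5.07 to -4.20 (SD 0.31). The last holds 3 samples in which miR-141 was not above background, and with background subtracted it ran from -5.69 to -4.49 (SD 0.44). These ratios compare hairpins of the same cluster. The ratio of miR-200b over miR-200c, which crosses the clusters but joins members of the same seed, ran from -0.98 to -0.57 (SD 0.14). In the same RNA run in another lane these ratios shifted by at most 0.27, 0.29, 0.21 and 0.20. The ratio of miR-429 over miR-200b split by lane class without overlap, at 0.037 to 0.36 in the lower-background and -0.36 to -0.14 in the higher-background lanes. In the lower-background lanes its SD was 0.13 (n = 4).

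Wild type 3 and mutant 8 kept a residual of the family signal that differed between members. Residual levels are the count minus the mean negative control of the lane, scaled by TMM library size, in percent of the median of the other 7 samples, with the exact 95% Poisson interval of the count, which covers counting error only. In bulk tissue fewer epithelial cells and less miRNA per cell cannot be told apart. The labels call both samples lung. What tissue they held was not tested, and their high heart and muscle miRNA counts bear on every residual below.

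miR-200b, with 218 and 311 counts, remained above background in both samples. Its residual was 14.2% (12 to 16.6) in wild type 3 and 15.3% (13.5 to 17.4) in mutant 8, so that the intervals overlapped at TMM scaling. The level of miR-200b in wild type 3 depended on the scaling. It was 12.9% with total count, 7.32% with positive-control scaling, 10.6% with housekeeping scaling and 9.25% with no scaling. Whether the intervals of the 2 samples overlap at those scalings was not tested for any member, so equal levels of miR-200b are not read from the overlap. miR-200c, with 173 and 380 counts, stood at 6.43% (5.25 to 7.75) and 11.6% (10.3 to 12.9), intervals that do not overlap. miR-429 was above background in mutant 8 alone, with 196 counts and 8.52% (7.13 to 10.1). In wild type 3 it read 62 counts, not above the threshold of 68.6 counts, and the interval of this count reached up to 3.14%. miR-200a read 98 counts and 15.7% (11.1 to 21.0) in mutant 8, and in wild type 3 its 68 counts lay just under the same threshold, with an interval that reached up to 17.1% and overlapped that of mutant 8. miR-141 was not above background in either sample, at 27 and 48 counts. The lane thresholds there correspond to 57.3% and 39.6% of its usual level, so its residual could not be measured. In the other 7 samples the levels of miR-200b, miR-200c and miR-429 lay between 75.8% and 113% of their medians. The ranges there were wider for miR-200a, at 70.4% to 125%, and for miR-141, at 81.3% to 175%.

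**Figure D2:**
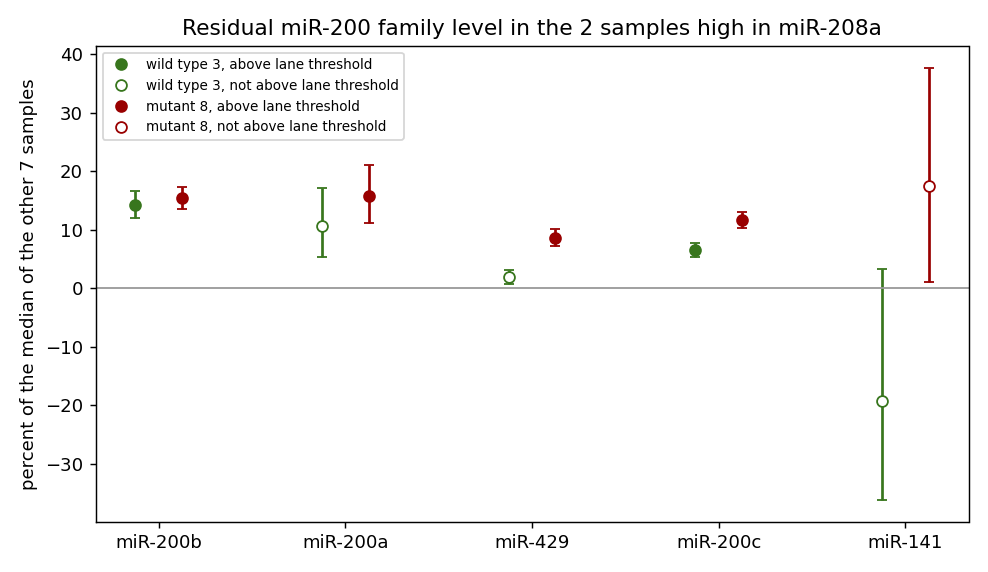
Residual level of each member in wild type 3 and mutant 8, in percent of the median of the other 7 samples after background subtraction, with the 95% Poisson interval of the count as bars. Filled points exceeded the lane threshold and open points did not. miR-429 is at 8.52% and miR-200b at 15.3% in mutant 8.

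In raw counts the ratios described above lay, in these 2 samples, outside those of the other 7. After background subtraction not all of them did. miR-429 over miR-200b, hairpins of the same cluster with the same seed, had a log2 ratio of -1.81 in wild type 3 and -0.67 in mutant 8, which is -1.85 and -0.70 from the median of the others. After background subtraction the ratios were -2.88 and -0.78, still under the lowest of the others at -0.37. Both samples were run in lower-background lanes, with mean negative control counts of 37.5 and 34.6. miR-200b over miR-200c was 0.33 and -0.29, above the highest other value of -0.57, and 0.41 and -0.32 after subtraction. These shifts exceed the largest repeat-lane shifts, although the repeat lanes were of RNA with the full family signal and do not measure error at low counts. miR-200a over miR-200b was -1.68 and -1.67 in raw counts, also above the other 7. With background subtracted it was -2.57 and -2.12 and lay inside their range of -2.57 to -1.90. In wild type 3 miR-200a was not above background, so that ratio is uncertain there. miR-141 over miR-200c cannot be read there because miR-141 was not above background. In both samples miR-429 was thus low relative to miR-200b, a member of its own cluster and seed, although in wild type 3 its count did not exceed background and the size of that ratio is uncertain.

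**Figure D3:**
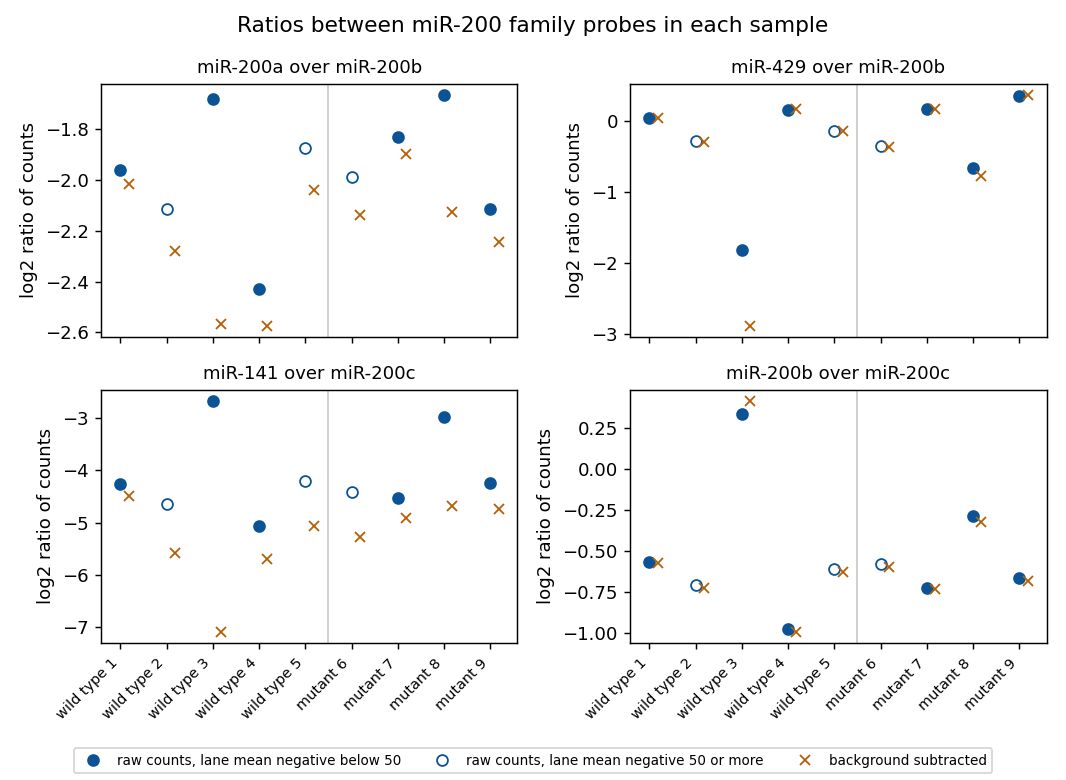
Log2 ratios of counts between members in each sample, in raw counts (blue, open where the lane's mean negative control was 50 or more) and with background subtracted at a floor of 1 count (crosses). Wild types are left and mutants right of the grey line. miR-429 over miR-200b is lowest in wild type 3 (-1.81) and mutant 8 (-0.67); the low cross of miR-141 over miR-200c in wild type 3 is set by the floor.

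All 5 members had a log2 CPM below the other 7 samples in both wild type 3 and mutant 8, as did 20.1% of the 189 kept probes (38 probes). The median residual over the 5 members, those not above background included, was 6.43% and 15.3%, beside 96.2% and 104% over all kept probes. A list of 7 cardiac and skeletal muscle probes summed to 22869 and 30047 counts in the 2 samples, against 378 to 636 in the others, with 2 of its 3 kept probes above the others in both. That list includes miR-208a itself, which set the 2 samples apart. The filter did not keep miR-208a, nor other probes of the list that were high in these 2 samples alone. The endothelial list of 4 probes gave 19693 and 18083 against 26272 to 35589, the list of 5 mesenchyme and smooth muscle probes 11912 and 14177 against 16958 to 23767, and the list of 6 blood probes 2358 and 3657 against 1946 to 3920. These are raw sums over probes that did not all move alike. By log2 CPM, 1 of 3 kept endothelial probes lay below the other 7 samples in both and 0 above, against 3 below and 1 above of 5 in the mesenchyme list and 1 below and 2 above of 6 in the blood list. The median levels of the kept probes were 89.5% and 59.7% for the endothelial list, 62.2% and 62% for the mesenchyme list and 134% and 209% for the blood list. The part of these other cell types in the family's low level was not tested.

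The 5 other kept probes most like the family, ranked by the higher of their levels in the 2 samples, were miR-135b, miR-221, miR-449a, miR-10a and miR-183. miR-449a, a miRNA of multiciliated cells, read 788 to 1307 counts in the 7 samples and 58 and 70 in wild type 3 and mutant 8, where only the second exceeded its threshold. miR-10a, encoded among the Hox genes, read 552 to 668 counts and then 58 and 80. miR-183, which is transcribed together with miR-96 and miR-182, read 216 to 332 counts and then 22 and 65, neither above background. miR-135b and miR-221 read 65 to 134 and 75 to 112 counts in the 7 samples, near background there too, and 15 to 27 in these 2. The likeness rests on these 2 samples.

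Epithelial miRNAs outside the family were less uniform. Of the 12 probes of the epithelial list 6 were kept, and 5 of these lay below the other 7 samples in both wild type 3 and mutant 8, beside the 20.1% of all kept probes. The exception was miR-205, a miRNA of basal and other stratified epithelial cells. It read 649 to 915 counts in the 7 samples, 111 in wild type 3 and 1196 in mutant 8, where it was the highest of all 9 samples at 195% of the median. The p63-repressing miR-203 read 105 to 154 counts in the 7 samples, 49 in wild type 3 and 82 in mutant 8. The neuroendocrine miR-375 read 159 to 211 counts, then 26 and 63, neither above background. miR-96 read 208 to 382 counts, then 87 and 152, both above background. miR-182, miR-34b-3p, miR-34b-5p, miR-34c, miR-449b and miR-449c were not kept, with miR-34c at 1 count in every sample. In mutant 8, therefore, miR-205 was high where the miR-200 family was low.

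**Figure D4:**
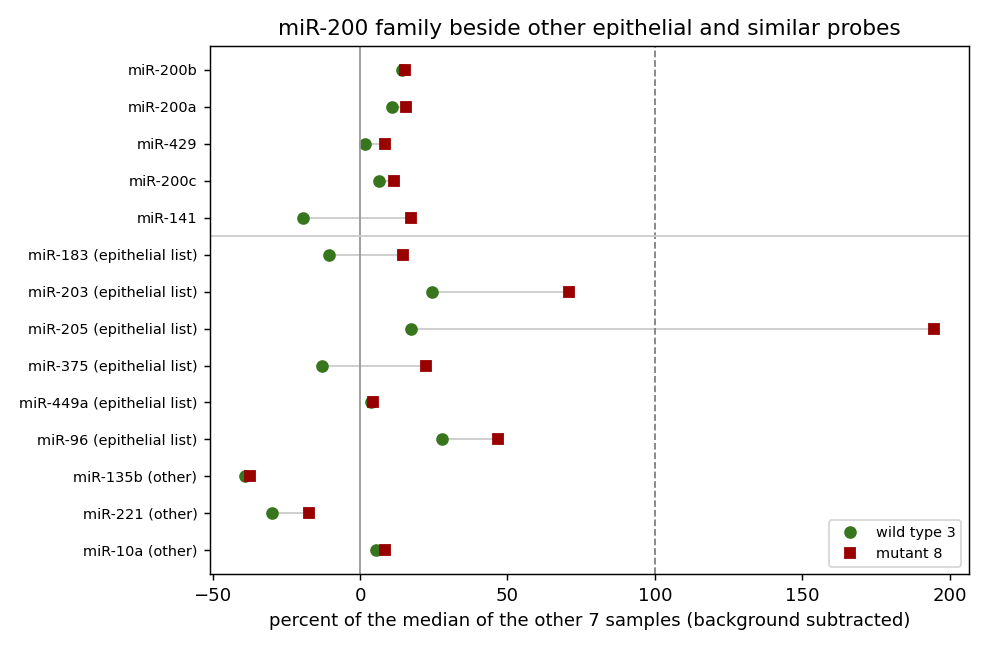
Level in wild type 3 (circles) and mutant 8 (squares), in percent of the median of the other 7 samples after background subtraction, for the 5 members, the 6 kept probes of the epithelial list and the probes most like the family. The dashed line marks the level of the other samples. miR-205 in mutant 8 stands at 195%, and values below 0 are counts under the mean negative control.

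Wild type and mutant lungs were then compared, the contrast that the labels give. No member differed by genotype in edgeR's quasi-likelihood test (0 of 5), and neither did any of the 189 kept probes (0% called, edgeR's smallest adjusted p being 0.997). DESeq2 called 0 as well. Before adjustment, 0 members and 2.65% of all kept probes had p under 0.05 in edgeR, or 5 probes, and 9 probes did in DESeq2. Of the members 2 of 5 read higher in the mutant, beside 40.2% of all kept probes. The log2 CPM of miR-200c averaged 12.92 ± 1.62 over the 5 wild types and 12.83 ± 1.45 over the 4 mutants (SD), and its log2 fold change was -0.15 ± 0.72 (SE, edgeR adjusted p = 0.997). miR-200b gave 12.41 ± 1.15 and 12.27 ± 1.27, a log2 fold change of -0.10 ± 0.60. miR-429 gave 12.01 ± 1.93 and 12.14 ± 1.64, with 0.025 ± 0.81. For miR-200a and miR-141 the log2 fold changes were 0.0048 ± 0.54 and -0.0082 ± 0.41. miR-141 was above background in only 4 samples, and with background subtracted its log2 fold change was 0.052 ± 0.89. Its smaller SE is therefore not read as a tighter result. These fits include wild type 3 and mutant 8, and the 95% interval of miR-429 ran from -1.79 to 1.84.

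Without wild type 3 and mutant 8 the comparison was tighter. Again 0 of the 189 probes passed adjustment (0%), and 3.17% of the probes but no member had an unadjusted p under 0.05. miR-200c had a mean log2 CPM of 13.64 ± 0.15 in 4 wild types and 13.55 ± 0.11 in 3 mutants, with a log2 fold change of -0.090 and a 95% interval of -0.37 to 0.19. For miR-200b the levels were 12.93 ± 0.12 and 12.90 ± 0.11, with a fold change of -0.029 (-0.31 to 0.25). miR-429 stood at 12.87 ± 0.23 and 12.95 ± 0.28, a fold change of 0.088 (-0.29 to 0.47). miR-200a stood at 10.84 ± 0.31 and 10.93 ± 0.23, with 0.077 (-0.33 to 0.49), and miR-141, near background, had 0.031 (-0.37 to 0.44). Each interval is given on the log2 scale. The groups overlapped for every member, and the share of all kept probes that did so was not counted. Of the members 3 of 5 read higher in the mutant, beside 46.6% of all kept probes. The family share of kept counts was 3.06% ± 0.151 in these 4 wild types and 3.08% ± 0.116 in these 3 mutants. The summed epithelial list ran from 2516 to 3007 and from 2655 to 3374 counts.

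**Figure D5:**
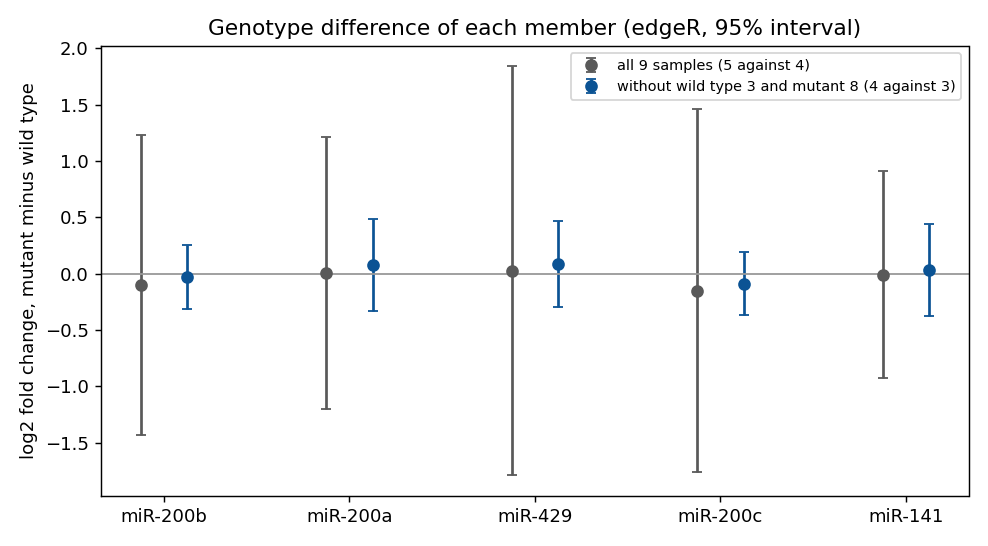
Log2 fold change of each member, mutant minus wild type, with the 95% interval from edgeR, for all 9 samples (grey) and without wild type 3 and mutant 8 (blue). Every interval spans 0, and those of miR-200c narrow from -1.76 to 1.46 with all samples to -0.37 to 0.19 without the 2 samples.

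No difference in proportions within the family passed either, by exact two-sided permutation tests over 5 against 4 samples for 4 ratios. The log2 ratio of miR-200a over miR-200b was -2.01 ± 0.28 in the wild type and -1.90 ± 0.19 in the mutant, a difference of 0.11 (exact permutation p = 0.524, 0.905 after Benjamini-Hochberg adjustment over the 4 ratios). For miR-429 over miR-200b the difference was 0.28 (exact permutation p = 0.683, adjusted 0.905) and for miR-200b over miR-200c -0.059 (exact p = 0.905, adjusted 0.905). For miR-141 over miR-200c the computed difference was 0.12 (exact p = 0.825, adjusted 0.905), but miR-141 was not above background in 5 of the 9 samples and nothing is read from this test. Within the lower-background lanes, 3 against 3 samples with wild type 3 and mutant 8 among them, the differences were 0.15, 0.49, 0.078 and -0.16, where the smallest p the design allows is 0.1. The higher-background lanes held 2 wild types and 1 mutant, too few for a value. Without wild type 3 and mutant 8 the differences were 0.12, 0.11, 0.14 and 0.059, with adjusted exact p-values of 0.8 each.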

How the data were processed

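Per the labels' protocols, RNA was extracted from lung ground in liquid nitrogen with a miRNA kit, samples under purity limits were left out, and run on an nCounter panel. The deposited values are raw counts per probe; per the file headers the lane table gives 12 lanes of the same panel, and all 5634 values of the count table equalled the first lanes, which were used. The sources used here name no other step. The genotype comparison used edgeR 4.0.16 under R 4.3.3 (glmQLFit and glmQLFTest with TMM factors) over the 189 kept mouse probes, with Benjamini-Hochberg adjustment at 0.05, and tested on simulated data. Log2 CPM used a prior count of 2. Alternatives used DESeq2 1.42.0 and limma 3.58.1. Residual levels, ratios and figures used Python 3.11.15, numpy 2.4.6, pandas 2.3.3, scipy 1.17.1 and matplotlib 3.10.9. Named probes are the 5 members, miR-208a, miR-1, the epithelial list and the 5 other probes lowest in wild type 3 and mutant 8. The members, lists and tests were chosen with earlier results of these data known. Sequences are RefSeq's.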

Additional observations from a re-analysis of the deposited data

Results flagged for a closer look

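A gap test for a single outlier in each genotype group marked 8 values in 18 tested groups (5 members and 4 ratios in each genotype), of which wild type 3 and mutant 8 held 4 each. By chance about 1 in 20 groups would be marked, a rate that does not apply to 2 samples already set apart by miR-208a. The gap test was run on the family only. Of all 189 kept probes 20.1% lay below the other 7 samples in both, by log2 CPM. In wild type 3 the log2 CPM of miR-200b (10.36), miR-200c (10.03) and miR-429 (8.57) and the log2 ratio of miR-429 over miR-200b (-1.81) lay far below the other wild types. In mutant 8 the log2 CPM of miR-200b (10.37), miR-200c (10.66), miR-141 (7.72) and miR-429 (9.71) lay far below the other mutants. The values marked for miR-429 in wild type 3 and miR-141 in mutant 8 are counts that did not exceed the lane threshold. Members share samples, so the marks are not independent of each other.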

How the results depend on the processing

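No member and no kept probe passed in any of 28 alternatives to the genotype test, where the smallest adjusted p of any probe was 0.173 and that of a member 0.899; probes at an unadjusted p under 0.05 numbered 1 to 10 against 5 in the reported fit, and no member was among them. Signs of the members' log2 fold changes are not stable. Leaving out each sample in turn moved miR-200a from -0.24 to 0.32, miR-200b from -0.36 to 0.23, miR-200c from -0.44 to 0.20, miR-141 from -0.22 to 0.24 and miR-429 from -0.28 to 0.39, with the extremes set by leaving out wild type 3 or mutant 8. Among the other alternatives miR-200a turned to -0.0058 with voom. With housekeeping scaling, which moved the median of all kept probes from -0.034 to 0.11, miR-200b read 0.052, miR-200c 0.019 and miR-141 0.11, and without samples 3 and 8 it gave 0.12, 0.083 and 0.15. Counting sample 5 as mutant gave miR-200b 0.0013 and miR-141 0.17, and without samples 3 and 8 as well miR-141 0.095 and miR-429 -0.035. miR-141, at -0.0082 in the reported fit, was also positive with DESeq2 (0.031), positive-control scaling (0.012, and 0.012 without samples 3 and 8), total count (0.034), no filter (0.041), background subtraction (0.052), a lane background covariate (0.0020), leaving out samples 3 and 8 (0.031), leaving out samples 3, 5 and 8 (0.073), in the lower-background lanes (0.069, and 0.0037 without samples 3 and 8) and with repeat lanes (0.083). The cause was not tested. Alternatives that combine leaving out samples 3 and 8 with another choice were added after seeing the data, and a filter in all samples removes miR-200a, miR-141 and miR-429.

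The genotype differences of the ratios, none of which passed, ran over single left-out samples from 0.0080 to 0.20 (miR-200a over miR-200b), -0.070 to 0.46 (miR-429 over miR-200b), -0.23 to 0.50 (miR-141 over miR-200c) and -0.18 to 0.15 (miR-200b over miR-200c), and the last was 0.059 without samples 3 and 8. Signs turned without wild type 3 (miR-429 over miR-200b, miR-200b over miR-200c), wild type 4 or mutant 8 (miR-141 over miR-200c). With background subtracted the difference for miR-141 over miR-200c was 0.68 (exact permutation p adjusted 0.508), against 0.12. The median residual of the family was 0% to 6.60% in wild type 3 over 6 of 7 alternatives and 16.7% without background subtraction, since counts at background then enter; in mutant 8 it was 10.8% to 16.8%. Background limits miR-141 in the 5 samples where it was under the lane threshold, and miR-200a and miR-429 in wild type 3. No paired analysis was possible because the groups share no replicate numbers.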

Other observations

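All 10 pairs of members were also compared by the SD of their log2 count ratio over the 7 samples other than wild type 3 and mutant 8, a description added after the data were seen. The steadiest pair was miR-200b and miR-200c (SD 0.14), followed by miR-200a and miR-141 (SD 0.16), although miR-141 was not above background in 3 of the 7 samples. Both pairs join members of the same seed from different clusters, and both are the pairs whose mature sequences differ at 2 of 22 positions. The other pairs of the same seed were wider, at 0.24 for miR-200c and miR-429 and 0.26 for miR-200b and miR-429. miR-200b and miR-141, which share neither seed nor cluster, stood at 0.19. The widest pair was miR-200a and miR-429 (SD 0.36), which lie in the same cluster and differ in seed. With background subtracted the first pair stayed at 0.14, while miR-200a and miR-141 widened to 0.29 and miR-200c and miR-141 was widest at 0.44. With second lanes in place of first ones the steadiest pair was miR-200b and miR-141 at 0.181, beside 0.183 for miR-200b and miR-200c. In the 4 lower-background lanes of these samples the steadiest pair was miR-200b and miR-429 at 0.13, so the order depends on the lanes used. Whether a probe also reads a near-identical member was not tested.

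Members with the AACACUG seed, miR-200a and miR-141, held 5.64% to 9.38% of the family's raw counts in the 7 samples, with wild type 4 the lowest, and 17.3% and 14.1% in wild type 3 and mutant 8. These are raw counts, and in those 2 samples miR-141 did not exceed background, so background counts enter these shares.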
